A study of Mus musculus with 4 samples.

Results

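Transcripts of 10 genes that carry glucose into the cell and break it down to lactate were followed in mouse mammary tumour cells: the transporter gene Slc2a1, the hexokinase genes Hk1 and Hk2, the phosphofructokinase genes Pfkl and Pfkp, and Aldoa, Pgk1, Pgam1, Pkm and Ldha. They were chosen by name, from 50679 genes in the deposited table, and all 10 were found there once each. All 10 also passed the filter for testing (mean FPKM of 1 or more), as did 12767 genes in all. FPKM scales fragments by transcript length and by library total, so levels of different genes can be set side by side.

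The 4 libraries come from tumours of mice 10 weeks old bearing the PyMT oncogene (polyoma middle T), common to both groups. Wild-type PCNA (WT) was present in 2 of them and the 211F form of PCNA in the other two. PCNA is the ring-shaped clamp of the replication fork, and the table's headers write the form as Y211F, phenylalanine in place of tyrosine at residue 211. Tumours were dissociated, cells were captured with an antibody to the epithelial surface protein EpCAM, and they were plated in medium with serum. The sources used here do not name the promoter that drives PyMT, the zygosity of the Pcna change or the number of animals behind a library. The series calls the libraries of a genotype independent repeats, and p-values below measure the spread between these libraries only.

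Glycolysis splits glucose into pyruvate in the cytosol and yields ATP without oxygen. Glucose enters through facilitative transporters of the SLC2 family and is trapped by hexokinase, and phosphofructokinase then commits it to the pathway. Proliferating tumour cells often turn much of the pyruvate into lactate by lactate dehydrogenase, and several of these genes are textbook targets of hypoxia-inducible factor (HIF).

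Because HIF acts through short DNA elements near many of these genes, the 250 bases upstream of the RefSeq start site are shown for 4 of them, from RefSeq on GRCm38.p6. Slc2a1, Pgk1 and Ldha are the members whose WT and 211F values did not overlap, and Pfkp is the one that varied most between libraries. Capitals mark the core of the HIF element, ACGTG or GCGTG, read on either strand, so CACGT and CACGC are in capitals too. Slc2a1 is on the plus strand at chr4:119108495-119108744, Pgk1 at chrX:106186850-106187099 (plus), Ldha at chr7:46846832-46847081 (plus) and Pfkp at chr13:6648772-6649021 (minus). For Slc2a1 the GENCODE start of the principal transcript lies 34 bases inside this stretch.
Slc2a1: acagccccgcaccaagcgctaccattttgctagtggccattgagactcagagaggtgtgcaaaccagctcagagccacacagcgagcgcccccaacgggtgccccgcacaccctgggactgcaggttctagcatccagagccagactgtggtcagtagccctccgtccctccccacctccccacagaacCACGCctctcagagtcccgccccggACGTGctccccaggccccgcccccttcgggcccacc
Pgk1: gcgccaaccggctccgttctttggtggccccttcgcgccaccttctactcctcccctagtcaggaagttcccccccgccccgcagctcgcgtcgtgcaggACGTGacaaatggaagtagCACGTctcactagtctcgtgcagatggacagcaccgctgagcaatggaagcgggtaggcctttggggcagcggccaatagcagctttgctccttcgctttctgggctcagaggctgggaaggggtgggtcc
Ldha: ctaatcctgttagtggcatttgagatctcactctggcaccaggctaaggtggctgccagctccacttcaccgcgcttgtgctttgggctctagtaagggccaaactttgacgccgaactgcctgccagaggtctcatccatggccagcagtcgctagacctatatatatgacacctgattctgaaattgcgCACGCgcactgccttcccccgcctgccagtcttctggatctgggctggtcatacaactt
Pfkp: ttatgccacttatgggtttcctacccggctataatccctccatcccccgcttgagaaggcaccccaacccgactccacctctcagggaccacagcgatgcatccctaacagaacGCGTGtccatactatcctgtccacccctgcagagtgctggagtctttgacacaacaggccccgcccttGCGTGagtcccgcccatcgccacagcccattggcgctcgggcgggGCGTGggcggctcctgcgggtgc

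All 10 members matched a RefSeq promoter by symbol, and where several start sites were listed, the one nearest the start of the principal GENCODE transcript was used. A core was present in 9 of the 10 stretches, against 38.6% of all 32851 promoter stretches of the same length in the table. The exception was Pkm, in whose stretch these letters were not found. For Pkm the GENCODE start of the principal transcript lies 208 bases before the RefSeq start, and for Hk1 121 bases before it. Most of the Pkm stretch therefore lies past the GENCODE start. The Hk1 matches 15 and 12 bases upstream of the RefSeq start lie past it too. Matches numbered 3 in Hk1, Pfkp and Pgam1, 2 in Slc2a1, Hk2 and Pgk1, and 1 in Pfkl, Aldoa and Ldha. GC content was between 54.4% (Ldha) and 69.6% (Hk2). Both core strings hold CG, and the share of 38.6% was not matched for GC content. That share also counts several start sites of some genes (27025 genes in all). Neither the presence nor the number of cores separated Slc2a1, Pgk1 and Ldha from the other members. The E-box CACGTG, which would count as a core on both strands, was in none of the 10 and in 6.02% of all stretches. A match is a string of letters and not a measured site.

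The libraries differed in cell state before any glycolytic gene is considered. The summed level of 14 epithelial markers was 7.56 FPKM in WT 2 and 3249 to 3634 in the others, with Cdh1 (E-cadherin) at 0.533 in WT 2 and 102 to 257 elsewhere and Epcam itself at 0.893 against 77.3 to 450. WT 2 thus had the defining markers of the labelled epithelial type near 0. The median of the 14 was 0.257 FPKM in WT 2, 46.1 in 211F 1, 93.8 in 211F 2 and 111 in WT 1. The summed level of 8 mesenchymal markers reached 4582 for 211F 1 and 3373 for WT 2. It was 372 for WT 1 and 60.01 for 211F 2. Fn1 made the largest difference between 211F 1 and WT 2 (1851 against 621.5 FPKM). Vim and Cdh2 were also higher in 211F 1, while Zeb1, Zeb2, Snai2, Twist1 and Sparc were lower there than in WT 2. The sum of 9 fibroblast markers was 1078 in WT 2 and 6.31 to 46.4 elsewhere, and 5 smooth muscle markers summed to 822 in 211F 1, 139 in WT 2 and about 1 in WT 1 (1.09) and 211F 2 (0.777). Endothelial, lymphoid, adipocyte and red cell sums were at most 2.28 FPKM in any library, and Ptprc, the leukocyte antigen, at most 0.0180. The myeloid sum ran from 7.78 in 211F 1 to 69.6 in WT 1, where Cd14 was 67.2, and in 211F 1 Cd14 was 3.55 and Cd68 2.56. The skeletal muscle sum was 13.6 in 211F 1, nearly all from Acta1, and at most 0.356 elsewhere.

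No read counts were in the table, but low values of long genes fell on whole steps, which gives the worth of 1 fragment in 1 kb as 0.0166 FPKM (WT 2) to 0.0302 (211F 2). The lowest value among the members, Hk2 in 211F 2, then stands for about 1525 fragments, a counting error of 2.56%. This covers counting error only. The number of libraries, 2 a genotype, limits the comparisons more than depth does.

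All 10 genes were expressed in every library, from 8.34 FPKM (Hk2 in 211F 2) to 2092 (Pkm in 211F 2), and most had lower means in 211F without passing the test. Of the 10 members, 8 had a lower mean in 211F on the log2(FPKM + 1) scale, against 46.9% of the 12767 tested genes. The median difference of 211F minus WT was -0.38 over the members and 0.028 over all tested genes. In 3 members, Slc2a1, Pgk1 and Ldha, both 211F libraries lay below both WT libraries, against 11.6% of tested genes, and in 0 members did they lie above, against 15.2%. limma called 0 members and 0 of all genes (0%), and every member had an adjusted p of 0.9999. At an unadjusted p under 0.05 limma had 0 members and 241 genes. In bulk RNA, fewer cells of a type and less RNA per cell cannot be told apart.

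**Figure D1:**
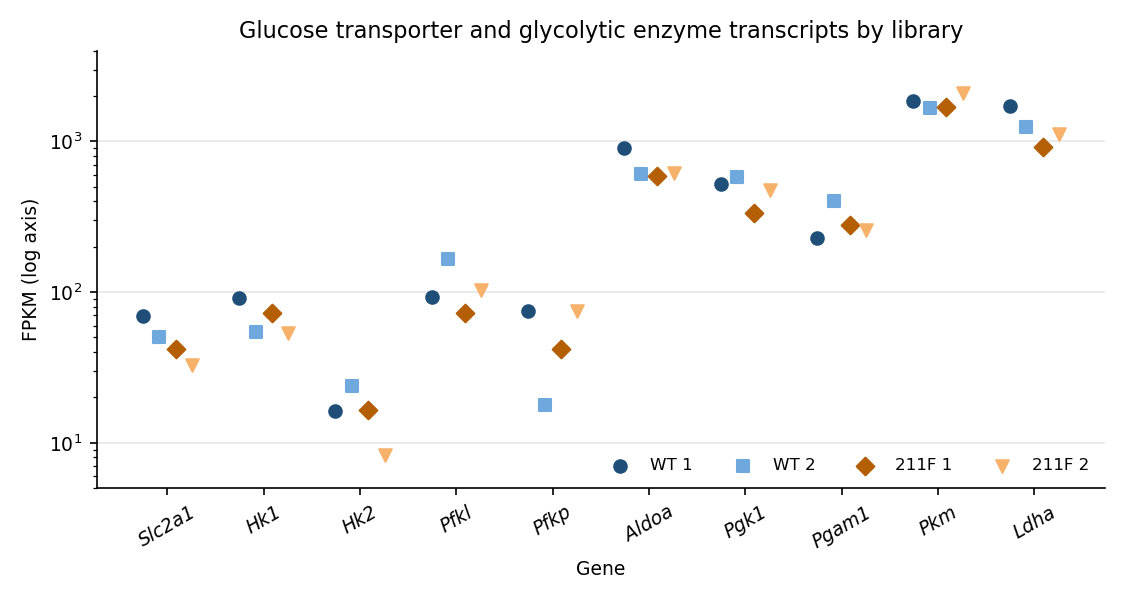
FPKM on a log axis for each of the 10 genes, with 1 point for each of the 4 libraries (2 WT, 2 211F). Pkm, Ldha and Aldoa stand at the top and Hk2 lowest, and WT 2 sits apart in Pfkp at 17.9 FPKM.

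Pkm, Ldha and Aldoa together made up 73.1% (WT 2) to 80.3% (WT 1) of the summed FPKM of the 10 genes. The order of levels within a library began with Pkm and Ldha in all 4 libraries and ended with Hk2 in 3 of them. In WT 2 the lowest member was Pfkp. The sum itself was 5574 FPKM for WT 1, 4819 for WT 2, 4067 for 211F 1 and 4841 for 211F 2, which is 1.02%, 0.878%, 0.720% and 0.878% of each library's total. The WT mean was 5197 ± 534 and the 211F mean 4454 ± 547 (SD, n = 2 a genotype), and the groups overlapped. An exact two-sided permutation test gave p = 0.667, and 2 libraries against 2 cannot give less than 0.3333.

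Among the listed Slc2a genes, Slc2a1 had the most transcript. It encodes GLUT1, the basal glucose transporter of most dividing cells (GRCm38 chromosome 4, 119108711 to 119137983). Its level was 69.4 FPKM for WT 1, 49.97 for WT 2, 41.7 for 211F 1 and 32.8 for 211F 2. Both 211F libraries were below both WT libraries. The closest pair, WT 2 and 211F 1, was 0.26 apart on the log2 scale, less than the 0.47 from WT 1 to WT 2. The difference was -0.66 ± 0.29 (SE; 95% interval -1.46 to 0.15; limma adjusted p = 0.9999). Slc2a1 held 74.2% to 79.7% of the summed FPKM of the 11 Slc2a genes listed. Of 12 other hexose transporter genes 5 passed the filter and 0 were called. Slc2a4, Slc2a9 and Slc5a1 passed it through WT 1 alone (2.73, 3.74 and 5.07 FPKM, against at most 0.699 elsewhere), so the list gives no direction. Next after Slc2a1 came Slc2a8, an intracellular transporter, with 8.25% to 14.3%, and it too had lower values in 211F (8.78 and 9.60 FPKM against 4.31 and 5.12). Slc2a3, the high-affinity GLUT3 gene, was at most 0.359 FPKM, and Slc2a4, the insulin-responsive GLUT4 gene, reached 2.73 in WT 1 and at most 0.639 elsewhere.

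Hexokinase traps glucose by phosphorylation, and the Hk1 and Hk2 forms both bind mitochondria. Hk1 (chromosome 10, 62268855 to 62379908) was at 91.0 and 54.0 FPKM in WT 1 and WT 2, and at 73.2 and 53.2 in 211F 1 and 211F 2. The groups overlapped, with WT 2 and 211F 2 almost equal (0.02 apart on the log2 scale), and the difference was -0.17 ± 0.37 (SE). Hk2 (chromosome 6, 82725025 to 82774454), the inducible form of many tumours, stood at 16.3 FPKM for WT 1, 23.9 for WT 2, 16.5 for 211F 1 and 8.34 for 211F 2. WT 1 and 211F 1 could hardly be told apart, and the highest and lowest libraries differed 2.87-fold. The Hk2 difference was -0.70 ± 0.45 (SE; 95% interval -1.94 to 0.54), the most negative of the 10.

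Hk1 was the more abundant of the pair everywhere, with 69.3% of the summed FPKM of Hk1 and Hk2 in WT 2 and 81.6% to 86.4% in the others. Hk2 accordingly took 30.7% in WT 2 and 13.6% to 18.4% elsewhere. The Hk1 to Hk2 ratio was 2.26 in WT 2 and 4.43 to 6.38 in the others, so WT 2 stood apart here and the genotypes did not.

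Phosphofructokinase is the committed and most regulated step, and its subunits from liver (Pfkl), platelet (Pfkp) and muscle (Pfkm) genes form mixed tetramers. Pfkl (chromosome 10, 77986947 to 78010083) was at 93.4 and 165 FPKM across WT libraries, with 211F libraries having 72.9 and 103, in the order of replicates. WT 2 was highest and 211F 1 lowest, and WT 1 lay between both 211F libraries, for a difference of -0.51 ± 0.39 (SE). Pfkp (chromosome 13, 6579768 to 6648777) was at 74.9 FPKM for WT 1, 17.9 for WT 2, 42.1 for 211F 1 and 74.5 for 211F 2. WT 1 and 211F 2 were within 0.01 of each other on the log2 scale, and WT 2 was 4.18-fold below WT 1. The difference of 0.59 ± 0.79 (SE; 95% interval -1.60 to 2.78) rested on WT 2, since it was -0.41 without WT 2 and 1.59 without WT 1.

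Of the phosphofructokinase pool, Pfkp made up 8.25% in WT 2 and 32.3% to 39.4% in the others, while Pfkl made up 76.2% in WT 2 and 49.1% to 56.1%. The Pfkl to Pfkp ratio was 9.24 in WT 2 and 1.25 to 1.73 elsewhere. Pfkm held 7.62% (211F 2) to 15.5% (WT 2), at 21.8 and 33.6 FPKM across WT libraries, with 211F libraries having 15.1 and 14.7. The pool as a whole stayed between 130 FPKM in 211F 1 and 217 in WT 2, a narrower span than that of Pfkp alone. WT 2 is also the library without epithelial markers and with the high fibroblast sum (1078 FPKM), and the part of cell makeup in these shares was not tested. In 211F 1 the mesenchymal sum was higher still, mainly through Fn1. The epithelial sum of 211F 1 was 3311 FPKM, against 7.56 in WT 2, led by Krt14 (1297) and Krt5 (1029). The median epithelial marker of 211F 1, 46.1 FPKM, lay below that of WT 1 (111) and 211F 2 (93.8). Pfkp held 32.3% and Hk2 18.4% in 211F 1, nearer to WT 1 (39.4% and 15.2%) than to WT 2.

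**Figure D2:**
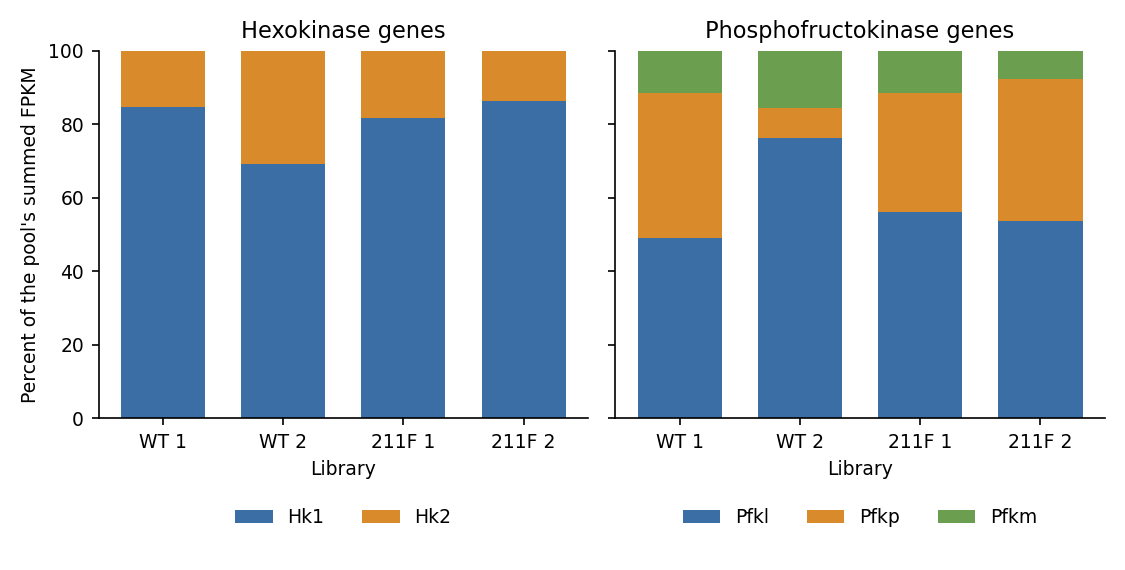
Percent of the summed FPKM of Hk1 and Hk2 (left) and of the phosphofructokinase genes (right) in each of the 4 libraries. WT 2 shows the smallest Pfkp share, 8.25%, and the largest Hk2 share, 30.7%.

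Aldolase splits the 6-carbon sugar, and Aldoa (chromosome 7, 126795234 to 126800751) is the muscle form, present in most tissues. Aldoa was at 900.2 FPKM for WT 1, 606 for WT 2, 586 for 211F 1 and 622 for 211F 2. WT 1 was high and the remaining libraries lay close together (at most 0.09 apart on the log2 scale), so the groups overlapped and the difference was -0.29 ± 0.30 (SE). Aldoc, the brain form, followed the same library, at 14.9 FPKM in WT 1 and 1.80 to 3.84 elsewhere. Aldoa held at least 98.4% of the sum of Aldoa and Aldoc.

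Phosphoglycerate kinase makes the first ATP of the payoff phase. Pgk1 (chromosome X, 106187100 to 106203699) was at 522 FPKM for WT 1, 584 for WT 2, 336 for 211F 1 and 479 for 211F 2. The groups did not overlap, but WT 1 and 211F 2 were only 0.12 apart on the log2 scale and both 211F libraries 0.51 apart. The difference was -0.46 ± 0.29 (SE; 95% interval -1.25 to 0.33; limma adjusted p = 0.9999). Pgk2, the testis form, was listed at 0 throughout.

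Pgam1, the mutase that moves the phosphate within phosphoglycerate (chromosome 19, 41911923 to 41918660), had 229 FPKM for WT 1, 399 for WT 2, 279 for 211F 1 and 258 for 211F 2. Both WT libraries bracketed both 211F libraries, and the difference was -0.17 ± 0.35 (SE). WT 1 had the lowest Pgam1 value and the highest Aldoa value, and the Aldoa to Pgam1 ratio was 3.93 for WT 1, 1.52 for WT 2, 2.10 for 211F 1 and 2.41 for 211F 2. The processed copy Pgam1-ps2 was listed at 13.4, 17.7, 19.2 and 30.01 FPKM across WT 1, WT 2, 211F 1 and 211F 2, and the handling of reads shared with Pgam1 was not given in the sources used here. Other named copies of the members reached at most 0.139 FPKM.

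Pyruvate kinase makes the last ATP of the pathway. Pkm (chromosome 9, 59656368 to 59679375) was the steadiest member, at 1865 FPKM for WT 1, 1676 for WT 2, 1694 for 211F 1 and 2092 for 211F 2, a span of 1.25-fold. It ranked 11th to 15th among all genes of a library, and its difference was 0.09 ± 0.29 (SE; 95% interval -0.73 to 0.91). The M1 and M2 splice forms are 1 value in this table. Pklr, the liver and red cell gene, was listed at 0.

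Lactate dehydrogenase A turns pyruvate to lactate and restores NAD+. Ldha (chromosome 7, 46841475 to 46855627) was at 1713 FPKM for WT 1, 1241 for WT 2, 924 for 211F 1 and 1118 for 211F 2. Both 211F libraries lay below both WT libraries, and the closest pair, WT 2 and 211F 2, was 0.15 apart on the log2 scale. The difference was -0.52 ± 0.31 (SE; 95% interval -1.39 to 0.35; limma adjusted p = 0.9999). The Ldha to Pkm ratio was 0.918 and 0.740 in WT against 0.546 and 0.534 in 211F. The ratios did not overlap, but they were looked at after the values were known and carry no test.

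Ldhb, the form that favours lactate use, was at 47.6 and 42.2 FPKM across WT libraries and 19.96 and 14.7 across 211F libraries, or -1.34 ± 0.27 (SE) on the log2 scale. limma gave it an unadjusted p of 0.008 and an adjusted p of 0.9999. Both libraries of each genotype lay close together there. Ldha held 97.3% and 96.7% of the Ldha, Ldhb and Ldhc pool in the WT libraries, and 97.9% and 98.7% in the 211F libraries.

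**Figure D3:**
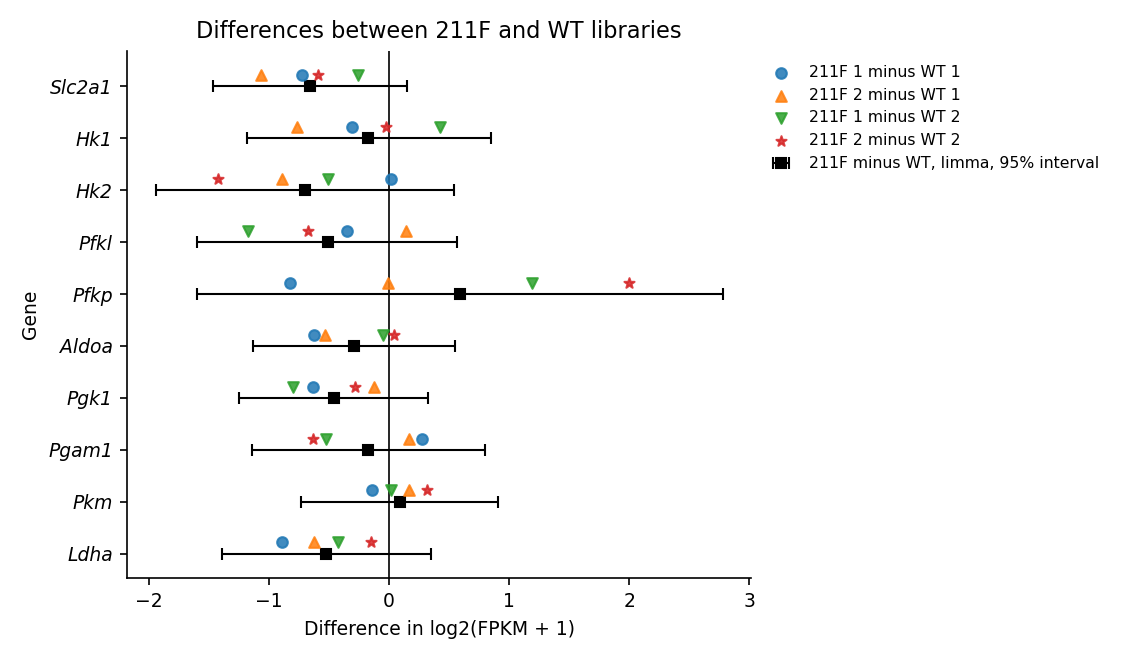
Difference of 211F minus WT in log2(FPKM + 1) for each gene (squares, limma, bars are 95% intervals), with the 4 differences between single 211F and WT libraries above each square. All 4 lie below 0 for Slc2a1, Pgk1 and Ldha, and every interval includes 0.

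The members differed as much between libraries of the same genotype as between genotypes. The median absolute difference over the 10 genes was 0.55 on the log2 scale from WT 1 to WT 2, 0.39 from 211F 1 to 211F 2, and 0.35 to 0.49 in the 4 pairs across genotypes. The same measure over all tested genes was 0.48 for the WT pair, 0.40 for the 211F pair and 0.31 to 0.46 across. In the pair with low mesenchymal sums, WT 1 and 211F 2, 7 of 10 members were lower in 211F 2 (median -0.33), against 44.3% of tested genes. In the pair with high mesenchymal sums, WT 2 and 211F 1, 7 of 10 were lower in 211F 1 (median -0.34), against 50.6%. The genes that went the other way were not the same: Pfkl, Pgam1 and Pkm in the first pair, and Hk1, Pfkp and Pkm in the second. These pairs are single libraries and carry no test. The second pair is not matched for cell state. Its epithelial sums were 7.56 FPKM (WT 2) and 3311 (211F 1), and its fibroblast sums 1078 and 46.4. Over tested genes 211F 1 was about as close to WT 1 (r = 0.8465) as to WT 2 (r = 0.8525).

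Most of the remaining enzymes of the pathway also had lower means in 211F, with no call among them. Of 19 others listed, 13 passed the filter, 12 had a lower mean in 211F (46.9% of all tested genes) and 6 were apart on that side (11.6%), with a median of -0.61. The triose enzymes Tpi1 (325 and 524 FPKM in WT, 238 and 306 in 211F) and Gapdh (2149 and 2734, 1691 and 2432), and the isomerase Gpi1 (278 and 299, 226 and 239), had lower means in 211F, but Gapdh overlapped. Eno1, the main enolase, overlapped (WT 1624 and 1248 FPKM, 211F 1337 and 1427). Eno2, the neuronal enolase, was high in WT 2 only, at 32.0 FPKM against 0.935 to 4.15, and Eno3, the muscle form, was also highest there (10.6 against 1.20 to 4.84). Without WT 2, 10 of 13 were lower and the median was -0.26, and without 211F 1 it was 9 of 13 and -0.43. In WT 1 against 211F 2 alone it was 9 of 13 and -0.21.

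Export of lactate uses the transporters MCT1 (Slc16a1) and MCT4 (Slc16a3) with the chaperone basigin (Bsg). Of 9 listed genes 8 passed the filter, 7 had a lower mean in 211F (46.9% of all tested genes), 3 were apart on that side (11.6%) and 0 were called, with a median of -0.58. Car12 passed through WT 1 alone (32.8 FPKM, against at most 2.01), and without WT 1 the count was 5 of 7 and the median -0.26. The median was -0.92 without WT 2, and in WT 2 against 211F 1 alone 4 of 8 genes were lower (median -0.08). Bsg was at 719 and 862 FPKM across WT libraries and 479 and 477 across 211F libraries, or -0.72 ± 0.24 (SE) on the log2 scale. limma gave it an unadjusted p of 0.0405 and an adjusted p of 0.9999. Slc16a1 was at 18.7 and 16.8 against 13.6 and 14.2 FPKM. Emb, embigin, another chaperone of these transporters, was at 153 and 56.9 against 40.6 and 74.6 FPKM. Slc16a3 followed the mesenchymal sums and not the genotype, with 8.66 FPKM for 211F 1, 3.55 for WT 2, 0.739 for WT 1 and 0.101 for 211F 2. Car9, a carbonic anhydrase of the hypoxia response, was at 4.06 and 1.45 FPKM across WT libraries, with 211F libraries having 0.807 and 0.919.

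Where pyruvate meets the mitochondrion, 7 of 13 genes were lower and 6 higher (median -0.01), but without WT 2 only 4 were lower. The 3 apart on the lower side, where 11.6% of all tested genes lay, were the kinases Pdk1 and Pdk2 and the phosphatase gene Pdp1. Pdk1 differed by -1.46 ± 0.37 (SE) and Pdk2 by -0.64 ± 0.38, while Pdk3 was level at 20.1 to 22.8 FPKM. Dld, the E3 subunit shared by several dehydrogenases, was higher in both 211F libraries (50.3 and 70.5 against 40.4 and 45.5 FPKM). Of all tested genes, 15.2% were apart on that side. Pcx, pyruvate carboxylase, which feeds oxaloacetate, was at 12.5 and 8.96 FPKM across WT libraries, with 211F libraries having 3.19 and 3.26, and differed by -1.46 ± 0.35 (SE). limma gave Pcx an unadjusted p of 0.0142 and an adjusted p of 0.9999. Of 7 gluconeogenic genes only 3, with Pck2 and G6pc3, passed the filter, and Pck1 was listed at 0.

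The control of phosphofructokinase by fructose 2,6-bisphosphate had 2 of 5 genes lower (median 0.07, and -0.17 without 211F 2). Tigar, which breaks that activator down, was the gene apart on the higher side, where 15.2% of all tested genes lay. Tigar was at 4.27 and 4.21 FPKM across WT libraries, with 211F libraries having 7.87 and 8.13 (0.78 ± 0.32, SE). Pfkfb3, which makes it, was highest in WT 2 at 26.2 FPKM and 3.97 to 11.6 elsewhere, and Pfkfb2 was highest in 211F 2 at 25.7 against 8.32 to 16.2.

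Side branches had no common direction. Pentose phosphate genes were lower in 3 of 8 (median 0.11), but in 6 of 8 without WT 2 (median -0.15) and in 1 of 8 without WT 1 (median 0.40). H6pd was apart on the lower side (11.6% of all tested genes), at 51.9 FPKM in WT 2 and 13.1 to 14.6 elsewhere. G6pdx, the entry enzyme, was lowest in WT 2 at 65.0 FPKM against 103 to 156. Glycogen genes were lower in 8 of 12 (median -0.18), and in 6 of 12 without 211F 1 (median -0.01). Pygl passed the filter through WT 2 alone (4.63 FPKM, against at most 0.0110). Pgm1, which links glucose 6-phosphate to glycogen, was at 39.4 and 61.2 FPKM across WT libraries, with 211F libraries having 24.3 and 28.8. Serine and hexosamine genes were lower in 3 of 9 (median 0.26), but in 5 of 9 without 211F 1 (median -0.07) and in 1 of 9 without 211F 2 (median 0.37). Phgdh, the first step of serine synthesis, was at 156 and 145 against 195 and 159 FPKM. No gene in any of these lists was called by limma.

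**Figure D4:**
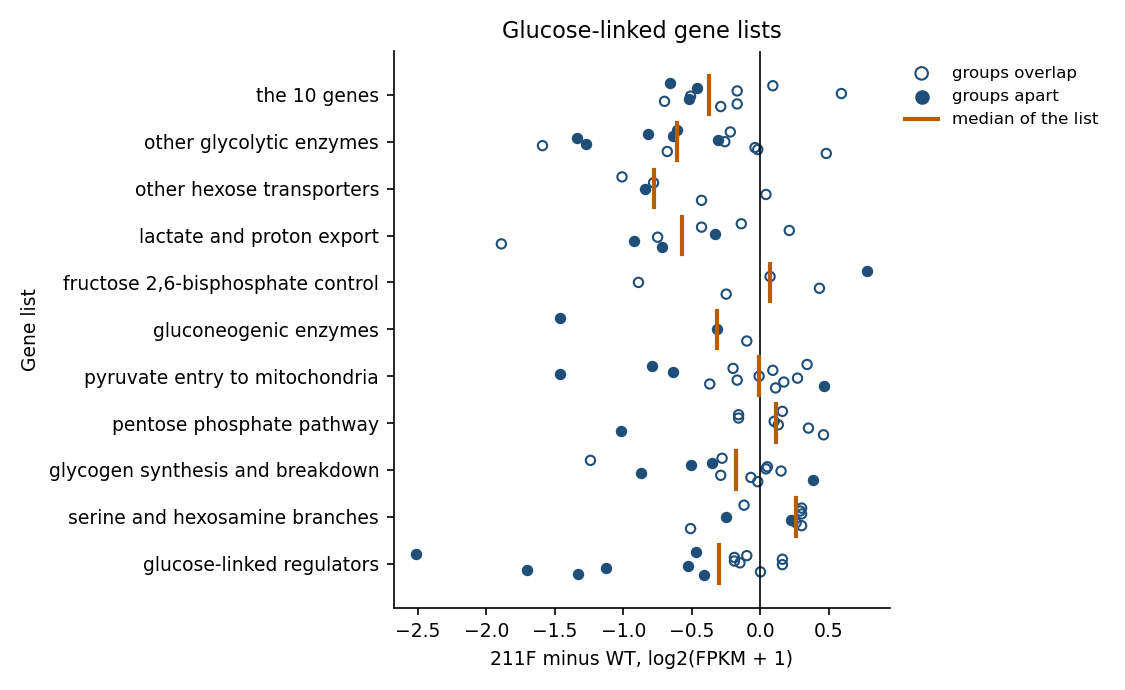
Difference of 211F minus WT in log2(FPKM + 1) for every tested gene of each list, filled where both WT libraries lie on one side of both 211F libraries, with the list's median as a bar. The medians are -0.38 for the 10 genes, -0.61 for the other glycolytic enzymes and 0.26 for the serine and hexosamine branches, which turns to -0.07 without 211F 1.

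Regulators of glucose use were lower in 12 of 14 (46.9% of all tested genes), with 7 apart on that side (11.6%) and 0 called. Their median was -0.30, but -0.49 without WT 1 and -0.16 in WT 1 against 211F 2 alone. The list mixes genes that promote and genes that limit glucose use, so this count gives no direction of glucose use. Hif1a, the oxygen-regulated HIF subunit, was at 39.9 and 56.9 FPKM across WT libraries, with 211F libraries having 32.3 and 33.2 (-0.53 ± 0.28, SE). Its partner Arnt was at 30.1 and 46.6 against 29.97 and 25.99, so that WT 1 and 211F 1 nearly met. Egln3, a prolyl hydroxylase induced by HIF, was at 4.12 and 15.6 against 3.799 and 0.670 FPKM, while Egln1 was level at 27.7 to 31.6. HIF1A protein is set mainly by its breakdown, so this transcript level does not measure HIF activity. Txnip and Arrdc4, arrestins that draw glucose transporters off the membrane, had lower values too, with differences of -2.51 ± 0.30 and -1.33 ± 0.40 (SE). They had the lowest unadjusted limma p among the regulators, and Arrdc4 was at 20.8 and 13.01 FPKM across WT libraries, with 211F libraries having 4.76 and 7.38.

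The mean of the 10 members on the log2(FPKM + 1) scale was 7.79 for WT 1, 7.58 for WT 2, 7.37 for 211F 1 and 7.44 for 211F 2. The 5 genes most like this profile, by Pearson r over the 4 libraries among 9581 genes with at least its range of 0.42, were Gstm5, Btg1, Cyp2j6, Alpl and Smarcal1. Their r was 0.9991 to 0.9996, and 35 genes exceeded 0.99, so with 4 points the likeness is a description only. Btg1 was at 40.3 and 30.4 FPKM across WT libraries, with 211F libraries having 23.0 and 24.8, while Alpl spanned 150 FPKM in WT 1 to 0.432 in 211F 1.

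Exons of 5 members overlap another gene. Pfkp shares sequence with Pitrm1 on the other strand (29.99 to 67.7 FPKM), and Pkm with Gm49759 on its own strand (11.7 to 46.2 FPKM). Gm12868 at Slc2a1, Hk1os at Hk1 and Fam57b at Aldoa, all on the other strand, were at most 0.487 FPKM. The library kit keeps strand, but use of strand in counting was not given in the sources used here, which leaves the Pfkp level uncertain to that extent.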

How the data were processed

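RNA of 4 libraries was sequenced after a strand-specific preparation, per the labels' protocols. The authors deposited FPKM values of 50679 Ensembl genes. Per the submitters' processing notes, TopHat2 2.0.13, DESeq2 and GRCm38 were used, in roles not stated there. Which program computed FPKM was not given in the sources used here. Since FPKM scales by library total, a rise in a few abundant genes lowers the others. Symbols matched 50369 identifiers. Positions are GENCODE M21 on GRCm38.

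Genes whose mean FPKM reached 1 were tested as log2(FPKM + 1) with limma 3.58.1 in R 4.3.3. The test used an intensity trend, was two-sided and had Benjamini-Hochberg adjustment over all 12767 genes at 0.05. It was also run on simulated data drawn from the means and spreads of this fit. The outcome of that run is not reported here. Each difference is 211F minus WT, and the added 1 understates changes of low genes. The worth of 1 fragment came from 1971 single-transcript genes of at least 3000 bp, with 90.3% to 96.7% of low values within 0.1 of a whole fragment. Members, lists and alternatives were chosen with earlier results of these data known. Named are all 10 members, up to 4 genes of smallest p and up to 4 of highest mean from each list, isoenzymes needed for a pool, 5 genes of like profile, Epcam and Cdh1. Pgk2, Eno2, Ldhc, Slc2a3, Slc16a3, Pck1, Pdk3, Car12 and the other marker genes were named after their values were seen. Alternatives changed the pseudocount, filter, scaling, block, a covariate and the libraries used. Whether replicate numbers pair libraries is not stated, so the test has no block. Some genes of these families are not reported here.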

Additional observations from a re-analysis of the deposited data

How the results depend on the processing

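limma called 0 genes in every alternative run. Genes at an unadjusted p under 0.05 numbered 241, and 745 with no filter on low values (more genes tested), 142 with the replicate block, 409 with the epithelial score as a covariate and between 226 and 843 on omitting single libraries, the most without WT 1. Replicate numbers were not taken as pairs: deviations from the group means had r = -0.465 between libraries of equal number, across genes. Each genotype holds both replicate numbers, so the replicate block cannot move a difference, and the members' median of -0.38 is no check of pairing. With that block all 10 members stayed uncalled. A block that pairs WT 1 with 211F 2 and WT 2 with 211F 1, added after seeing the data, gave 0 calls and 520 genes at an unadjusted p under 0.05.

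The median difference of the members was -0.38 and stayed within -0.40 to -0.35 with other pseudocounts, other scalings and the covariate. The filters hardly test it, since all 10 members pass each filter and each difference is fitted gene by gene. Single pairs of libraries gave -0.33 (WT 1 against 211F 2) and -0.34 (WT 2 against 211F 1). In the remaining pairs the median was -0.49 (WT 1 against 211F 1) and -0.22 (WT 2 against 211F 2). On omitting single libraries it was between -0.42 and -0.26, the smallest without 211F 1. The log2 ratio of the summed FPKM was -0.22, and -0.42 without Pkm, the most abundant and steadiest member, with -0.35 to -0.10 on omitting single libraries.

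Slc2a1, Hk2, Aldoa, Pgk1 and Ldha kept a negative difference in 14 of 14 alternatives. For Slc2a1, Pgk1 and Ldha most alternatives could not turn the sign, and the filters and replicate block could turn none. The 14 leave out the pairs WT 1 with 211F 1 and WT 2 with 211F 2. In these, Hk2 was 0.02 higher in 211F 1 than in WT 1, and Aldoa was 0.04 higher in 211F 2 than in WT 2. The Aldoa difference rested on WT 1, since it was -0.01 without WT 1 and -0.05 in WT 2 against 211F 1. Omitting single libraries moved Hk1 from -0.54 (without WT 2) to 0.21 (without WT 1), Pfkp from -0.41 (without WT 2) to 1.59 (without WT 1), Pgam1 from -0.57 (without WT 1) to 0.23 (without WT 2) and Pkm from -0.06 (without 211F 2) to 0.24 (without 211F 1). Hk1 also turned to 0.06 without 211F 2 and to 0.43 in WT 2 against 211F 1. Pfkp turned to -0.02 with the covariate and -0.01 in WT 1 against 211F 2. Pgam1 turned to 0.06 with the covariate and 0.17 in WT 1 against 211F 2, where Pfkl turned to 0.14. The cause was not tested. A fit that omits 1 library takes the spread of the remaining single library from the opposite genotype. Leaving out libraries and using single pairs for the pathway lists were added after seeing the data.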
